A study of Mus musculus with 2 samples.

Results

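Heterogeneous nuclear ribonucleoproteins (hnRNPs) are abundant RNA-binding proteins that coat nascent transcripts in the nucleus and govern their splicing, export, stability and translation. Several of them are also known from telomere biology, because hnRNP A1, hnRNP A2/B1 and hnRNP D bind single-stranded telomeric repeats and the telomeric RNA TERRA. Many hnRNP genes control their own output by alternative splicing or intron retention, which yields transcripts that stay in the nucleus or are degraded. The measurements below concern the RNAs made from these genes, and not the proteins. They cover 9 genes chosen by symbol, Hnrnpa1, Hnrnpa2b1, Hnrnpu, Hnrnpk, Hnrnpc, Hnrnpd, Hnrnph1, Hnrnpl and Hnrnpm, which together had 55 listed transcripts among 48876 transcripts of 24117 gene symbols.

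RNA that came down with chromatin was sequenced by enChIP-RNA-Seq from Ba/F3, a mouse hematopoietic cell line of strain C3H. One library came from cells stably expressing 3xFN-Tel-TAL, a TAL protein with a 3xFLAG tag and a nuclear localization signal that recognizes telomeric repeats, and the other from cells expressing 3xFNLDD, a FLAG-tagged LexA protein used as negative control. The comparison asks which RNAs were more abundant in the telomere isolates than in the control isolates. Both populations were crosslinked with formaldehyde, sonicated and immunoprecipitated with the anti-FLAG M2 antibody, and per the labels 60 ng of RNA entered each library. The study's methods instead name larger and unequal amounts of purified RNA for sequencing, more for 3xFNLDD than for 3xFN-Tel-TAL. As each condition has 1 library, a ratio has no replicate check, no test and no p-value, and a difference between the bait proteins cannot be told apart from a difference between the cell lines or preparations. In addition, more RNA of a gene in the cells and more RNA on the isolated chromatin cannot be told apart, since RNA of whole cells was not analysed here. Every interval in square brackets is an exact 95% interval that covers counting error only.

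The control library held 7206183 reads and the Tel-TAL library 9774844, of which 84.8% and 81.1% fell on 11 transcripts that each exceeded 1% of a library. At these depths, 3 reads corresponded to 0.416 and 0.307 RPM (reads per 1000000 reads of the library). All 8 hematopoietic marker genes examined had reads in both libraries (1998 and 3207 reads in sum), although Kit had only 2 reads in each. The 6 listed markers of other cell types summed to 97 and 100 reads, of which the erythroid gene Hbb-b1 held 49 and 73. The part of either marker list in the results below was not tested.

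A few stretches of coding sequence separate the annotated isoforms among which the reads of Hnrnpd and Hnrnpa2b1 were divided, and are shown because the transcripts that carry or lack them are compared further below. They were taken from GENCODE M1 coding transcripts, whose build is NCBIM37, and codons TAT and TAC, which specify tyrosine, are in capitals where they lie in frame. The first is exon 7 of 9 of Hnrnpd-001 (chr5:100392750-100392896, minus strand, 147 nt), which Hnrnpd-002 lacks and in which 14 of 48 whole codons were TAT or TAC. The second is exon 8 of 11 of Hnrnpa2b1-203 (chr6:51414427-51414546, minus strand, 120 nt), which Hnrnpa2b1-201 lacks and in which 6 of 39 whole codons were TAT or TAC and 23 began with GG, as glycine codons do. The third is the 39-nt exon that opens the model of Hnrnpa2b1-202 (chr6:51417390-51417428, minus strand) and is absent from Hnrnpa2b1-203. It includes codons of the part by which the B1 protein differs from A2 near its amino terminus. The coding sequence of this model opens with CAG rather than a start codon, so the model is not complete at its 5′ end. Whether all 39 nt belong to that part was not checked.
Hnrnpd exon 7: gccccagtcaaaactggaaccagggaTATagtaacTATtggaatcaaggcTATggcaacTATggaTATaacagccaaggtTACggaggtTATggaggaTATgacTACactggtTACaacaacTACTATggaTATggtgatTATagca
Hnrnpa2b1 exon 8: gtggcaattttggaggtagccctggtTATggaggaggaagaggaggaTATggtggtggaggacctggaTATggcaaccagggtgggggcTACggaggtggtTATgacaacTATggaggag
Hnrnpa2b1 B1 exon: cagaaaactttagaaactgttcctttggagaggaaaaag

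Relative to the library totals, all 9 genes were higher in 3xFN-Tel-TAL than in 3xFNLDD, with log2 ratios of RPM from 0.04 to 0.71, but with TMM scaling 4 of them, Hnrnpu, Hnrnpk, Hnrnph1 and Hnrnpm, lay below 0, and with totals that leave out the 11 largest RNAs 3 of them, Hnrnpu, Hnrnpk and Hnrnpm, did. The same shift was seen across the libraries: the median log2 ratio over 3065 gene symbols with at least 200 reads was 0.41, and TMM scaling lowered every ratio by 0.37 (log2 shift of -0.37). The median of the 9 genes was 0.44, which was 0.03 above that of all gene symbols, so the family as a whole lay at the level of the other RNAs. A ratio of RPM above 1.4 was reached by 4 of the 9 genes, a share of 44.4% beside 47.8% of the 4021 gene symbols with at least 100 reads in 3xFN-Tel-TAL. With TMM scaling, 0 of the 9 genes and 20.4% of gene symbols passed it. The study's methods apply the threshold of 1.4 to the ratio of read counts without scaling, in order to list non-coding RNAs. The 9 genes code for proteins and are outside that use. Their unscaled ratio was above 1.4 in 8 of the 9 genes, as it was in 83.7% of gene symbols. No gene's lower bound was above 1.4 on library totals, and the share of all gene symbols with such a bound is not given. Of the 7 genes with at least 100 reads in 3xFNLDD, 0 lay below 1/1.4, where 10.2% of 1988 such gene symbols lay.

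Hnrnpa1, Hnrnpa2b1 and Hnrnpd, named above for proteins that bind telomeric repeats, had log2 ratios of 0.44 to 0.71, which overlapped the range of the other genes. Whether proteins of the other genes also bind such repeats was not considered in this grouping. Hnrnpa1 (chr15:103070945-103074445 on NCBIM37), which encodes a splicing repressor that shuttles between nucleus and cytoplasm, had 123 control reads and 239 in 3xFN-Tel-TAL, corresponding to 17.1 and 24.5 RPM. Its log2 ratio was 0.52 [0.20 to 0.84]. Hnrnpa2b1 (chr6:51410433-51419893), which encodes the related proteins A2 and B1, had 184 and 338 reads, or 25.5 and 34.6 RPM, with a log2 ratio of 0.44 [0.17 to 0.70]. Hnrnpd (chr5:100387445-100407957), also called AUF1 and known for directing the decay of mRNAs with AU-rich elements, had 51 and 113 reads, the fewest of the 9, or 7.08 and 11.6 RPM. The ratio of Hnrnpd was the highest of the 9, at 0.71, but its interval [0.22 to 1.21] spanned the ratios of 7 of the other genes.

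Among the genes for core and scaffold proteins, Hnrnpc and Hnrnpu lay at opposite ends. Hnrnpc (chr14:52693055-52723703), which encodes a uridine-tract-binding core protein of the hnRNP particle, had 89 control reads and 193 Tel-TAL reads, or 12.4 and 19.7 RPM, with a log2 ratio of 0.68 [0.31 to 1.06]. Hnrnpm (chr17:33783178-33823805), which encodes a splicing regulator, had 103 and 170 reads, or 14.3 and 17.4 RPM, with a ratio of 0.28 [-0.08 to 0.65]. Hnrnpu (chr1:180253205-180267928), which encodes the nuclear scaffold protein SAF-A that tethers RNA to chromatin, had the most reads, 394 and 548. These were 54.7 and 56.1 RPM, so that Hnrnpu was nearly level between the libraries, with a log2 ratio of 0.04 [-0.15 to 0.23].

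Of the remaining genes, Hnrnpk (chr13:58492503-58504704), which encodes a KH-domain protein that binds C-rich nucleic acid, had 131 and 218 reads, or 18.2 and 22.3 RPM, with a log2 ratio of 0.29 [-0.02 to 0.62]. Hnrnph1 (chr11:50190492-50200030), whose protein binds G-rich RNA, had 166 and 284 reads, or 23.0 and 29.1 RPM, with a ratio of 0.33 [0.05 to 0.62]. Hnrnpl (chr7:29593560-29607285), whose protein binds CA repeats and regulates splicing, had 209 and 437 reads, or 29.0 and 44.7 RPM, with a ratio of 0.62 [0.38 to 0.87].

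**Figure D1:**
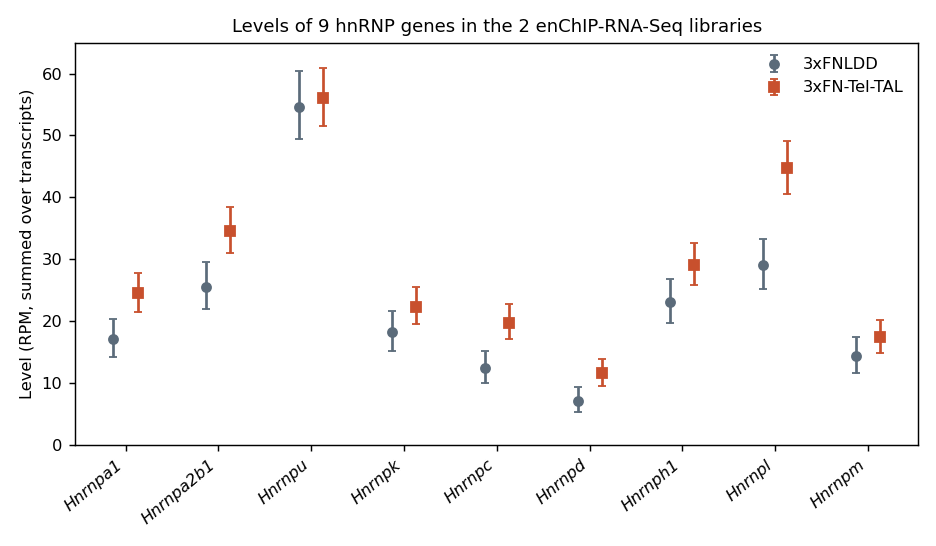
Level of each of the 9 genes in RPM, summed over its transcripts, in the 3xFNLDD (circles) and 3xFN-Tel-TAL (squares) libraries, with bars for the exact 95% interval of the read count. Hnrnpu was nearly level at 54.7 and 56.1 RPM and Hnrnpl went from 29.0 to 44.7 RPM on library totals; RPM is not corrected for length, so levels are to be read within a gene, and with TMM scaling Hnrnpu, Hnrnpk, Hnrnph1 and Hnrnpm lay lower in 3xFN-Tel-TAL.

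Hnrnpu had the lowest ratio of the 9 and was separated from 5 of the other genes in a comparison that does not depend on scaling. Relative to the median of all gene symbols, 5 genes lay above it and 4 below, and the interval of 1 gene, Hnrnpu, excluded that median, from below. Of 36 pairs among the 9 genes, the interval for the difference in log2 ratio excluded 0 in 5 pairs, each of which had Hnrnpu as the lower gene. The differences were 0.67 [0.14 to 1.21] for Hnrnpd, 0.64 [0.22 to 1.07] for Hnrnpc, 0.59 [0.28 to 0.90] for Hnrnpl, 0.48 [0.11 to 0.86] for Hnrnpa1 and 0.40 [0.07 to 0.73] for Hnrnpa2b1, with no correction for the number of pairs. The share of such pairs among all gene symbols is not given, nor is the share of gene symbols whose interval excluded the median. Hnrnpu also had the most reads of the 9, and with them the narrowest interval. Hnrnpu was not separated from Hnrnph1 (0.30 [-0.04 to 0.64]), Hnrnpk (0.26 [-0.12 to 0.64]) or Hnrnpm (0.25 [-0.16 to 0.66]). Such a ratio was not rare among well-covered RNAs, however. Of 769 gene symbols with 500 or more reads over the pair of libraries, 24.4% had a ratio below that of Hnrnpu, and their median was 0.35. The reads of the 9 genes summed to 1450 and 2540, a log2 ratio of 0.37 [0.28 to 0.46], and to 0.48 [0.37 to 0.58] without Hnrnpu.

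Other hnRNP genes spanned a wider range than the 9, but their lowest ratio, that of Hnrnph3, rested on few reads. Among those with at least 100 reads in 3xFN-Tel-TAL, the lowest was Hnrnpab at 0.18, above Hnrnpu at 0.04, so at that depth the range was wider only at the top. Of 19 further listed genes, 15 had at least 100 reads in 3xFN-Tel-TAL. A ratio above 1.4 was reached by 9 of these 15 (60.0%), beside the 47.8% of all gene symbols. With TMM scaling, 3 of the 15 and 20.4% of all gene symbols reached it. None of the 10 with at least 100 reads in 3xFNLDD lay below 1/1.4, and the median over the 19 was 0.46. The highest ratios were those of Celf1, a regulator of splicing and mRNA decay, with 227 control and 884 Tel-TAL reads (1.52 [1.31 to 1.74]), Hnrnph2, a close relative of Hnrnph1, with 41 and 119 reads (1.10 [0.57 to 1.65]), and Ptbp1, the pyrimidine-tract-binding splicing repressor also called hnRNP I, with 214 and 597 reads (1.04 [0.81 to 1.27]). At the lower end, Hnrnph3 had 17 and 16 reads (-0.53 [-1.61 to 0.55]), Hnrnpr had 65 and 92 (0.06 [-0.41 to 0.54]), and Pcbp2, a KH-domain protein also called hnRNP E2, had 62 and 94 (0.16 [-0.32 to 0.65]). On library totals, the intervals of Celf1, Hnrnph2 and Ptbp1 lay wholly above a ratio of 1.4, or 0.49 in log2, which held for none of the 9 genes. TMM scaling lowers each bound by 0.37, which puts the lower bounds of Hnrnph2 and Ptbp1 below 0.49. The share of all gene symbols with such an interval is not given.

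**Figure D2:**
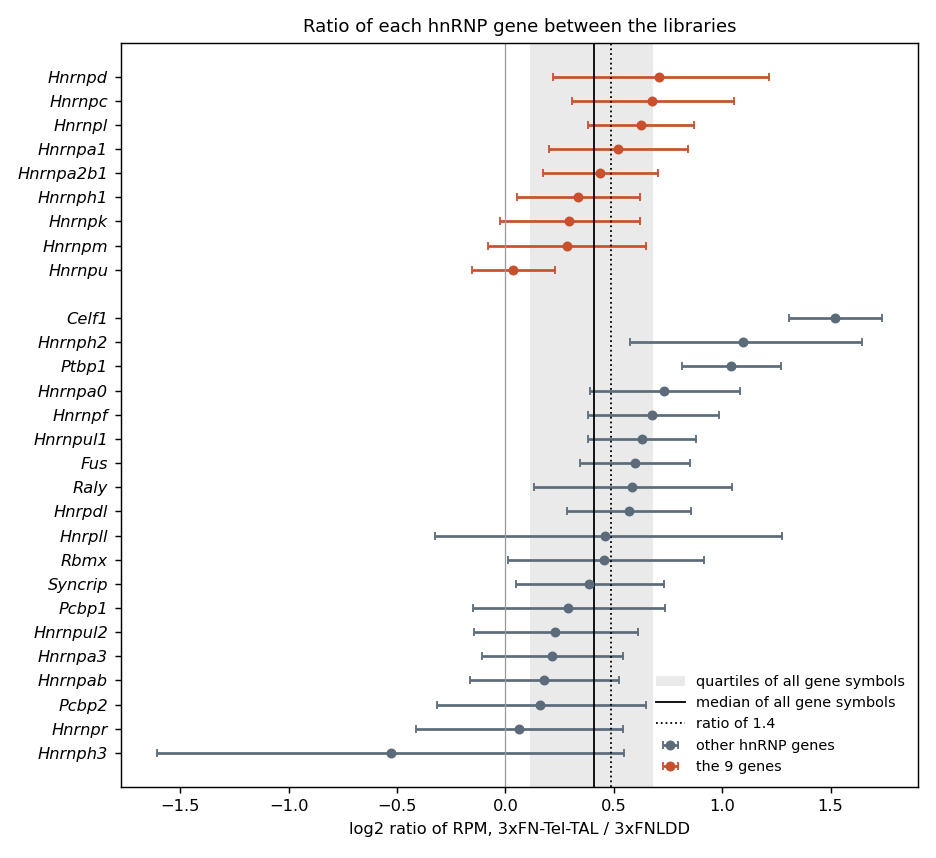
Log2 ratio of RPM (3xFN-Tel-TAL over 3xFNLDD, horizontal axis) of the 9 genes (top) and of 19 other hnRNP genes (below), with exact 95% counting intervals. The solid line marks the median of all gene symbols with at least 200 reads (0.41), the shaded band their quartiles (0.11 to 0.68) and the dotted line a ratio of 1.4; the interval of Hnrnpu lay below the median, and TMM scaling would move every point left by 0.37, which puts Hnrnpu, Hnrnpk, Hnrnph1 and Hnrnpm below 0.

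Levels per kilobase were compared for the transcript with the most reads of each gene, and so do not rank whole genes. In 3xFN-Tel-TAL this transcript held 100% of the reads of Hnrnpa1, 85.0% of those of Hnrnpu, 49.2% of those of Hnrnpl and 46.3% of those of Hnrnpk. The transcript of Hnrnpa1 had the highest level of the 9 in 3xFN-Tel-TAL, and in 3xFNLDD its interval overlapped that of Hnrnpu-001. Its level was 15.2 RPM per kb [12.6 to 18.2] in 3xFNLDD and 21.8 RPM per kb [19.1 to 24.7] in 3xFN-Tel-TAL, over a transcript of 1122 nt. Hnrnpu-001 followed at 12.0 [10.8 to 13.4] and 12.3 [11.2 to 13.5] RPM per kb, and Hnrnpl-002 came next in 3xFN-Tel-TAL at 9.67 RPM per kb [8.42 to 11.1], whereas in 3xFNLDD, at 4.94 [3.92 to 6.14], it lay behind Hnrnpm-002 at 5.46 [4.40 to 6.69]. The intervals of these top 3 did not overlap in 3xFN-Tel-TAL. From Hnrnpm-002 (6.17 RPM per kb) through Hnrnpc-202 (5.81), Hnrnpa2b1-203 (4.98), Hnrnpk-002 (3.86) and Hnrnph1-008 (3.71) to Hnrnpd-002 (2.97), each interval in 3xFN-Tel-TAL overlapped that of its neighbour, so that their order was not resolved at this depth. The order also depends on the choice by reads, which favours long models. In 3xFN-Tel-TAL, Hnrnpa2b1-201 (7.58 RPM per kb) and Hnrnph1-201 (5.70) lay above the leading transcripts of their genes. In 3xFNLDD, Hnrnpl-201 (5.51) lay above Hnrnpl-002.

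The 55 transcripts were then examined one by one. Of the 21 with 20 or more reads over the pair of libraries, 10 had a ratio above 1.4 on library totals, a share of 47.6% beside 44.2% of the 16468 such transcripts of any gene. The lower bound of 3 was above 1.4, and the share of the 16468 for which this held is not given. The median log2 ratio of the 21 was 0.48, beside 0.39 over the 16468. The other 34 transcripts had 1 to 19 reads each and 74 and 130 reads in sum, a log2 ratio of 0.37 [-0.05 to 0.80], and are not interpreted singly. How reads that match several transcripts of a gene were assigned is not given in the sources used here. Hnrnpl-201 and Hnrnpd-002, for example, had reads although none of their 50-nt stretches was absent from the other transcripts of their gene, so the part of that assignment in a ratio between transcripts with much shared sequence was not tested. A difference between transcripts of a gene does not depend on the scaling of the libraries. Of 18 pairs of transcripts with at least 20 reads within 7 genes, the interval of the difference excluded 0 in 5 pairs, from the 3 genes Hnrnpl, Hnrnpk and Hnrnpc, with no correction for the number of pairs. The share of such pairs over the transcripts of all genes is not given, so this count is not read as a trait of these genes.

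**Figure D3:**
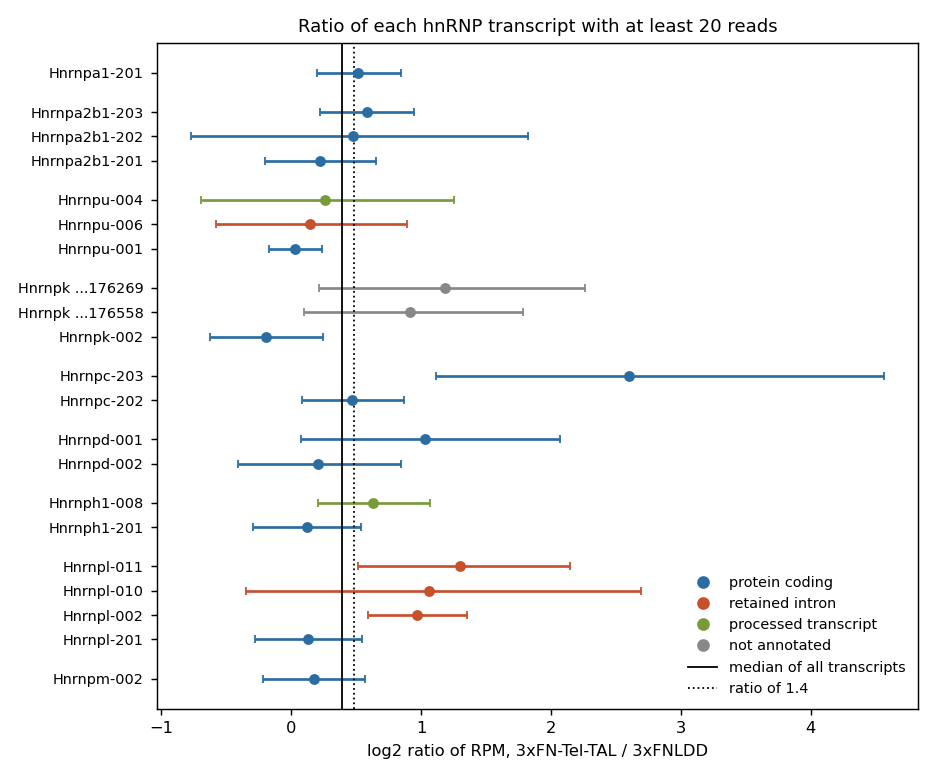
Log2 ratio of RPM (3xFN-Tel-TAL over 3xFNLDD, horizontal axis, library totals) of the 21 transcripts with at least 20 reads, grouped by gene and coloured by annotated type, with exact 95% counting intervals. The solid line marks the median of all such transcripts (0.39); the transcripts of Hnrnpl annotated with a retained intron lay at 0.97 to 1.30, right of the coding Hnrnpl-201 at 0.13, and Hnrnpc-203 lay farthest right at 2.60.

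In Hnrnpl, the transcripts with retained introns had higher ratios than the coding transcripts. The leading transcript of the gene, Hnrnpl-002, is annotated as retained intron and had 81 control and 215 Tel-TAL reads, or 11.2 and 22.0 RPM, a log2 ratio of 0.97 [0.59 to 1.36]. Hnrnpl-011, also of this type, had 18 and 60 reads (1.30 [0.52 to 2.14]), and Hnrnpl-010 had 6 and 17 (1.06 [-0.35 to 2.69]). The main coding transcript, Hnrnpl-201, had 85 and 126 reads, or 11.8 and 12.9 RPM, a ratio of 0.13 [-0.28 to 0.54]. Hnrnpl-201 thus held about as many reads as Hnrnpl-002 in the control isolates and fewer in the telomere isolates. The difference in log2 ratio from Hnrnpl-201 was 0.84 [0.27 to 1.41] for Hnrnpl-002, 1.17 [0.27 to 2.11] for Hnrnpl-011 and 0.93 [-0.55 to 2.62] for Hnrnpl-010.

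When the reads of Hnrnpl were summed by annotated type, a grouping chosen after the transcript values were seen, its 6 retained-intron transcripts had 107 control and 295 Tel-TAL reads, and its 3 protein-coding transcripts had 102 and 141. The retained-intron share of these reads was 51.2% [44.2 to 58.2] in the control isolates and 67.7% [63.0 to 72.0] in the telomere isolates. The classes had log2 ratios of 1.02 [0.70 to 1.36] and 0.03 [-0.35 to 0.41], a difference of 0.996 [0.488 to 1.503]. Without Hnrnpl-002, the difference was 1.15 [0.38 to 1.95]. Most of the sequence of Hnrnpl-002 and Hnrnpl-011 lies outside the exons of the coding transcripts, 1608 of 2275 nt (70.7%) and 627 of 768 nt (81.6%), and 74.2% and 86.9% of their 50-nt stretches were found in no other transcript of the gene. The positions of the reads within the transcripts were not analysed here. The annotation shows no gene overlapping Hnrnpl, and no near-identical copy (at least 95% identity over 200 nt) was found among the other annotated transcripts.

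**Figure D4:**
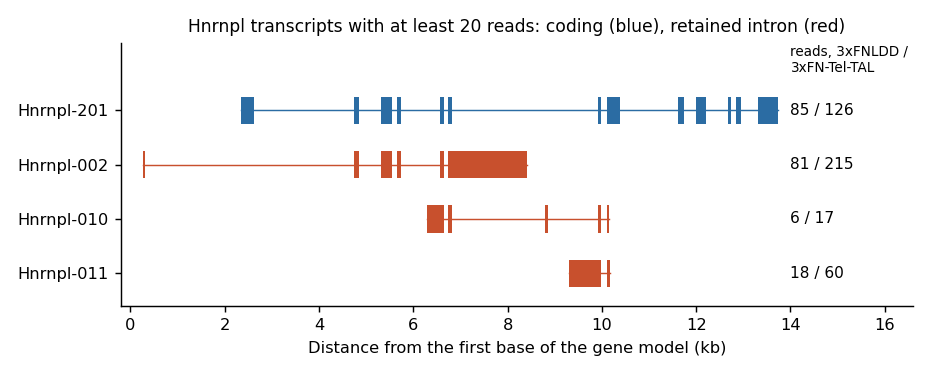
Exons (boxes) of the Hnrnpl transcripts with at least 20 reads, by distance in kb from the first base of the gene model in the direction of transcription, with the reads in 3xFNLDD and 3xFN-Tel-TAL at the right. The retained-intron transcripts (red) contain long stretches between the exons of the coding Hnrnpl-201 (blue), and had 81 and 215, 6 and 17, and 18 and 60 reads, against 85 and 126 for Hnrnpl-201.

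In Hnrnpu, the other gene with at least 20 reads in both classes, no such difference was resolved, and the contrast between both genes was not tested. Its 3 retained-intron transcripts had 41 and 56 reads and its coding transcript 336 and 466, log2 ratios of 0.01 [-0.60 to 0.63] and 0.03 [-0.17 to 0.24], a difference of -0.02 [-0.67 to 0.63]. Their share of the reads was 10.9% in 3xFNLDD and 10.7% in 3xFN-Tel-TAL. Across all 1486 gene symbols with at least 20 reads in each class, the median difference was 0.04, with quartiles of -0.50 and 0.63, and 52.4% of them lay above 0. A difference larger than that of Hnrnpl was seen in 14.1% of them. Over the 9 genes, the 12 retained-intron transcripts summed to 152 and 366 reads (0.83 [0.55 to 1.11]) and the 22 protein-coding transcripts to 1162 and 1871 (0.25 [0.14 to 0.35]). Without Hnrnpl, the retained-intron transcripts summed to 45 and 71 reads (0.22 [-0.34 to 0.79]) and the protein-coding ones to 1060 and 1730 (0.27 [0.16 to 0.38]), so the gap between these classes rested on Hnrnpl.

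**Figure D5:**
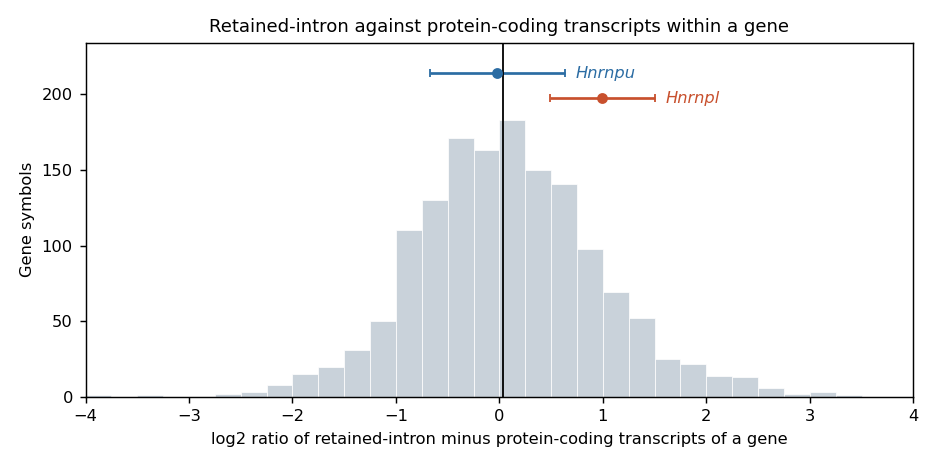
Histogram of the difference in log2 ratio between the retained-intron and the protein-coding transcripts of a gene (horizontal axis), over 1486 gene symbols with at least 20 reads in each class (vertical axis, number of gene symbols per bin). Points above the bars give Hnrnpl (0.996) and Hnrnpu (-0.02) with exact 95% counting intervals, and the line marks the median of all (0.04).

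Hnrnph1 showed a gap of the same direction that its interval did not resolve. Hnrnph1-008, a processed transcript of 4002 nt without an annotated open reading frame, had 69 and 145 reads (0.63 [0.21 to 1.07]), and 2433 nt of it (60.8%) lie outside the coding exons. The coding Hnrnph1-201 had 84 and 124 reads (0.12 [-0.29 to 0.54]). The difference was 0.51 [-0.09 to 1.11].

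In Hnrnpk, the leading coding transcript and a pair of other transcripts differed. Hnrnpk-002 had 85 control and 101 Tel-TAL reads, a log2 ratio of -0.19 [-0.62 to 0.24], the only negative one of the 21. ENSMUST00000176558 had 18 and 46 reads (0.91 [0.10 to 1.79]) and ENSMUST00000176269 had 12 and 37 (1.18 [0.21 to 2.26]). The differences from Hnrnpk-002 were 1.10 [0.17 to 2.08] and 1.38 [0.29 to 2.54]. Hnrnpk-002 accordingly held 64.9% [56.1 to 73.0] of the reads of the gene in the control isolates and 46.3% [39.6 to 53.2] in the telomere isolates. These and 7 further Hnrnpk transcripts are not in the annotation used here, so that their type, length and position are not given.

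Hnrnpc had the widest gap among the 18 pairs, between transcripts that share most of their sequence. Hnrnpc-202 had 85 and 160 reads (0.47 [0.08 to 0.87]), and Hnrnpc-203 had 4 and 33 reads (2.60 [1.11 to 4.56]), a difference of 2.13 [0.57 to 4.13]. The share of Hnrnpc-202 was 95.5% [88.9 to 98.8] in 3xFNLDD and 82.9% [76.8 to 87.9] in 3xFN-Tel-TAL. Both models end in the same 2679 nt, and 139 and 164 nt at their 5′ ends are not part of that common end, so that 97.4% of the 50-nt stretches of Hnrnpc-203 occur in Hnrnpc-202. The transcripts can be told apart only by reads at the 5′ end, and the gap rests on 4 reads in the control library.

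The isoforms of Hnrnpd and Hnrnpa2b1 that differ by the exons printed above were not separated at this depth. Hnrnpd-001, which carries the tyrosine-codon-rich exon 7, had 13 control and 36 Tel-TAL reads (1.03 [0.08 to 2.07]). Hnrnpd-002, which lacks it, had 37 and 58 (0.21 [-0.41 to 0.84]), a difference of 0.82 [-0.35 to 2.04]. Hnrnpa2b1-203, with exon 8, had 98 and 199 reads (0.58 [0.23 to 0.95]), and Hnrnpa2b1-201, without it, had 77 and 122 (0.22 [-0.20 to 0.65]), a difference of 0.36 [-0.21 to 0.92]. Hnrnpa2b1-202, with the B1 exon, had 9 and 17 reads (0.48 [-0.77 to 1.83]), which differed from Hnrnpa2b1-203 by 0.10 [-1.30 to 1.41]. Hnrnpa2b1-203 and Hnrnpd-001 also have the longer models, 4086 and 4320 nt against 1647 and 2000 nt, so that their reads need not come from the printed exons. The model of Hnrnpa2b1-202 has 1582 nt. Only 2.4% of the 50-nt stretches of Hnrnpa2b1-202 and 2.8% of those of Hnrnpa2b1-201 were found in no other transcript of the gene. The reads of Hnrnpa2b1-202 are therefore not a measure of the B1 exon.

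The remaining transcripts with at least 20 reads were those of Hnrnpu, Hnrnpm and Hnrnpa1. Hnrnpu-001, the coding transcript, had 336 and 466 reads (0.03 [-0.17 to 0.24]), Hnrnpu-006, with a retained intron, had 28 and 42 (0.15 [-0.58 to 0.89]), and the processed transcript Hnrnpu-004 had 16 and 26 (0.26 [-0.69 to 1.26]). Hnrnpu-001 held 85.3% and 85.0% of the reads of the gene. Hnrnpm-002 had 92 and 141 reads (0.18 [-0.21 to 0.57]) and 89.3% and 82.9% of its gene. Hnrnpa1 was listed with 1 transcript, which held all of its reads and had its ratio of 0.52 [0.20 to 0.84]. The interval of Hnrnpu-001 lay below the median of all transcripts, as that of the gene did.

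Sequence of at least 95% identity over 200 nt was found in copies of Hnrnpa1, Hnrnpk and Hnrnpc that do not overlap those genes, and in genes that overlap Hnrnpd, Hnrnpu and Hnrnpm. Hnrnpa1 had 6 near-identical pseudogenes in the annotation, of which 4 were listed, with 4 and 9 reads in sum against 123 and 239 for the gene. A copy of Hnrnpk, Gm7964, had 9 and 4 reads, and one of Hnrnpc, Gm12696, had 0 and 1. The library kit, per the labels a TruSeq RNA kit of version 2, does not mark strand. Gm17092, a transcript on the opposite strand, overlaps exons of 5 Hnrnpd transcripts and aligned to Hnrnpd over 386 nt at 100% identity. Reads of Hnrnpd and of Gm17092 that lie within the shared stretch cannot be told apart, which does not hold for reads from the rest of Hnrnpd. Gm17092 had 27 and 74 reads, a log2 ratio of 1.01 [0.36 to 1.71], and its part in the ratio of Hnrnpd was not tested. Gm16586, on the same strand as Hnrnpu, had 73 and 157 reads (0.66 [0.26 to 1.09]) and shares exon sequence with 1 Hnrnpu transcript, Hnrnpu-005, which had 1 and 0 reads. The gene March2, with 43 and 102 reads, likewise shares exon sequence with 1 Hnrnpm transcript, Hnrnpm-001, which had 3 and 2 reads.

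The member transcripts were also searched for the telomeric hexamer, on both strands. TTAGGG was found in 5 of the 46 transcripts with a sequence (10.9%), beside 20.9% of 45887 listed transcripts, and its reverse complement CCCTAA in 13 (28.3%), beside 25.7%. A tandem pair of either hexamer occurred in 0 of the 46 and in 19 (0.0414%) of the listed transcripts. TTAGGG occurred in the 3 Hnrnpa2b1 transcripts, in Hnrnpd-001 and in Hnrnpl-002, with 1, 2 and 1 copies per transcript, respectively. Transcripts of a gene share sequence, and lengths were not matched between these sets, so the shares are a description.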

How the data were processed

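RNA from 2 enChIP isolates, 1 per condition, had been sequenced. Per the file headers, the deposited values are read counts of Ensembl transcripts and RPM. The labels' processing notes name cutadapt, GRCm38 and mm10, whereas the aligner, annotation release and handling of reads matching several transcripts are not given in the sources used here. Counts were joined on transcript ID and summed per gene symbol. The members and lists were chosen with earlier results of these data known. All 9 genes, each transcript with 20 or more reads over both libraries, and the 3 highest and 3 lowest other hnRNP genes were named. Log2 ratios of RPM were computed with exact Clopper-Pearson 95% intervals (Python 3.11.15, scipy 1.17.1), and pairs were compared by exact odds-ratio intervals. Reads carried no molecular identifiers and may be PCR duplicates, so all intervals cover counting error only. Annotation and sequences were those of GENCODE M1 (NCBIM37), which holds 45887 of the 48876 transcripts. Copies were sought with BLAST 2.17.0+. Alternatives were TMM scaling (edgeR 4.0.16), other totals, a pseudocount of 1, the leading transcript only, and other thresholds. The ratio computation was tested on simulated data.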

Additional observations from a re-analysis of the deposited data

How the results depend on the processing

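The median log2 ratio of the 9 genes was 0.44 on library totals, 0.069 with TMM scaling, 0.12 with totals that leave out RNAs above 1% of a library, and 0.88 as a ratio of unscaled read counts. The number of the 9 genes above 1.4-fold, 4 on library totals, was 0 with TMM scaling, 0 with the reduced totals and 8 with unscaled counts (beside 20.4%, 23.2% and 83.7% of all gene symbols). It was 0 with a threshold of 2 and 0 when the lower 95% bound had to exceed 1.4, settings for which the share of all gene symbols is not given. Hnrnph1 turned to -0.034 with TMM scaling. Of the other hnRNP genes, 15 had at least 100 reads in 3xFN-Tel-TAL. On library totals 9 of these 15 passed 1.4-fold, 3 did with TMM scaling, 3 with the reduced totals and 15 with unscaled counts. The shares of all gene symbols were 47.8%, 20.4%, 23.2% and 83.7%. When only Hnrnp and Hnrp symbols were kept, 5 of 8 passed on library totals, or 62.5% beside 60.0% of the 15. The number of transcripts above 1.4-fold was 10 of 21 at a minimum of 20 reads, and 7 of these 21 with TMM scaling. It was 6 at 50 reads and 4 at 100 reads, where fewer transcripts were tested. The shares over all transcripts at these higher minimums and with TMM scaling are not given. When each gene was represented by its leading transcript, Hnrnpk turned from 0.29 to -0.19, Hnrnpd went from 0.71 to 0.21, Hnrnph1 from 0.33 to 0.63 and Hnrnpl from 0.62 to 0.97. A pseudocount of 1 read left all 13 results it was applied to on the same side. No paired analysis was possible because each condition has a single library, and for the same reason no library could be left out. Depth limits the transcripts, as 34 of 55 had fewer than 20 reads.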
